A study of Homo sapiens with 12 samples.

Results

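The respiratory chain passes electrons from NADH and succinate to oxygen through 4 protein complexes of the mitochondrial inner membrane. The genes described here are subunits of complexes I to IV that are encoded in the nucleus, with 3 regulators, TFAM, NRF1 and PPARGC1A. They are listed by gene name, 43 genes in all, by a rule that uses no measured value, although the list was drawn up with earlier results of these data known. On the arrays 39 of the 43 were measured, among 19775 genes tested: 21 of 23 in complex I, 3 of 4 in complex II, 5 of 6 in complex III, 7 of 7 in complex IV and 3 of 3 regulators. A gene was measured where a probe set carried its symbol and no other, and where there were several, the one whose mean over the 12 arrays was highest stood for it. The 3 probe sets of NDUFS8 carried several symbols, and the other 3 listed genes were not analysed here. Among those 3 is a gene counted in complex I by its name that is now placed in complex IV.

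The cells were PC9, an established human lung adenocarcinoma line whose growth depends on a mutant epidermal growth factor receptor (EGFR). There were 4 groups of 3 arrays: PC9 cells with a GFP vector in DMSO, the vehicle; PC9 cells with the miR371 precursor (pre-miR-371) in DMSO; and both lines in 2 μM erlotinib, which blocks the kinase of EGFR, for 24 h. All 12 arrays came from stable PC9 lines that carried an introduced construct, and each kind was represented by 1 line, so an effect of the precursor and a difference between the lines that were made cannot be told apart. The labels do not say whether the 3 arrays of a group came from separate cultures, while the study's methods call its replicates biological in general, without naming the arrays. What the p-values weigh is the spread between arrays, which may be technical. The sequence of the miRNA is shown because its precursor is what was introduced into the pre-miR-371 line. In RefSeq (GRCh38.p14) the 3′ arm of the precursor, hsa-miR-371a-3p, lies on chr19:53787716-53787738, plus strand, and reads as follows, with the seed, bases 2 to 8, in capitals.
hsa-miR-371a-3p: aAGUGCCGccaucuuuugagugu

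Complex I oxidises NADH, complex II (succinate dehydrogenase) also serves the citric acid cycle, complex III passes electrons to cytochrome c and complex IV (cytochrome c oxidase) passes them to oxygen. Most subunits are nuclear genes, and a small set is encoded by mitochondrial DNA, which TFAM packages and helps to transcribe. NRF1 is a transcription factor that binds the promoters of many subunit genes and of TFAM, and PPARGC1A (PGC-1α) is a coactivator that acts through NRF1 and related factors.

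Values are log2 expression values as the authors normalized them, so that a difference of 1 is a doubling. They are relative to the rest of each array, and fewer cells of a kind and less RNA per cell cannot be told apart in them. The treatment label could be read from the MAPK targets DUSP6, SPRY4 and ETV5, whose log2 values differed between erlotinib and DMSO in the GFP vector line by -5.91, -3.34 and -4.54. Of 8 epithelial markers 7 averaged 6 or more on the log2 scale, against 1 of 6 fibroblast markers, 0 of 3 measured leukocyte markers and 1 of 3 endothelial markers. The endothelial one was PECAM1, which was higher by 1.27 in erlotinib, and the log2 summed level of the 3 ran from 8.18 to 8.26 in the GFP vector line in DMSO to 9.29 to 9.36 in erlotinib, with VWF and CDH5 under 6. Signs of RNA quality moved with the groups: the 3′ minus 5′ difference of the ACTB control probe sets was 0.03 to 0.13 and 0.22 to 0.33 in the GFP vector line and the pre-miR-371 line under DMSO, and 0.23 to 0.31 and 0.42 to 0.51 in erlotinib. For GAPDH the same difference was 0.05 to 0.11 and 0.06 to 0.09 under DMSO, and 0.08 to 0.11 and 0.13 to 0.16 in erlotinib. Only the last of these groups, the pre-miR-371 line in erlotinib, lay apart from the others. The 18S rRNA control probe set read 9.59 to 11.1 in DMSO and 11.4 to 11.9 in erlotinib. The part of these in the results that follow was not tested.

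The transcripts of TFAM and NRF1 were lower in erlotinib in both lines. TFAM read 10.60, 10.57 and 10.57 on the 3 arrays of the GFP vector line in DMSO and 9.52, 9.54 and 9.39 in erlotinib. In the pre-miR-371 line it read 10.67, 10.58 and 10.67 in DMSO and 10.05, 9.78 and 9.83 in erlotinib. No erlotinib array reached a DMSO array in either line, and TFAM fell by 1.10 ± 0.07 (log2 fold change ± SE, 2.14-fold, limma adjusted p = 7.2e-08) in the GFP vector line and by 0.76 ± 0.07 (1.69-fold, adjusted p = 2.51e-06) in the pre-miR-371 line. Its other 3 probe sets gave -1.15, -1.05 and -1.02 in the GFP vector line and -0.81, -0.78 and -0.77 in the pre-miR-371 line.

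NRF1 read 6.60, 6.55 and 6.40 in the GFP vector line in DMSO and 5.68, 5.36 and 5.42 in erlotinib, and 6.33, 6.52 and 6.38 and 5.93, 5.83 and 5.98 in the pre-miR-371 line. The groups did not overlap, with a fall of 1.03 ± 0.09 (2.04-fold, adjusted p = 9.58e-07) in the GFP vector line and of 0.50 ± 0.09 (1.41-fold, adjusted p = 0.000622) in the pre-miR-371 line. A second NRF1 probe set, whose mean was also near 6, gave -0.49 in the GFP vector line and -0.46 with pre-miR-371. PPARGC1A, the coactivator, was dim on all arrays, reading 2.94, 2.96 and 2.85 in the GFP vector line in DMSO and 2.84, 2.86 and 2.99 in erlotinib. Its arrays overlapped in both lines, with differences of -0.02 ± 0.10 (adjusted p = 0.917) and -0.22 ± 0.10 (adjusted p = 0.0984), and at this signal a difference in its transcript may not be detectable.

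**Figure D1:**
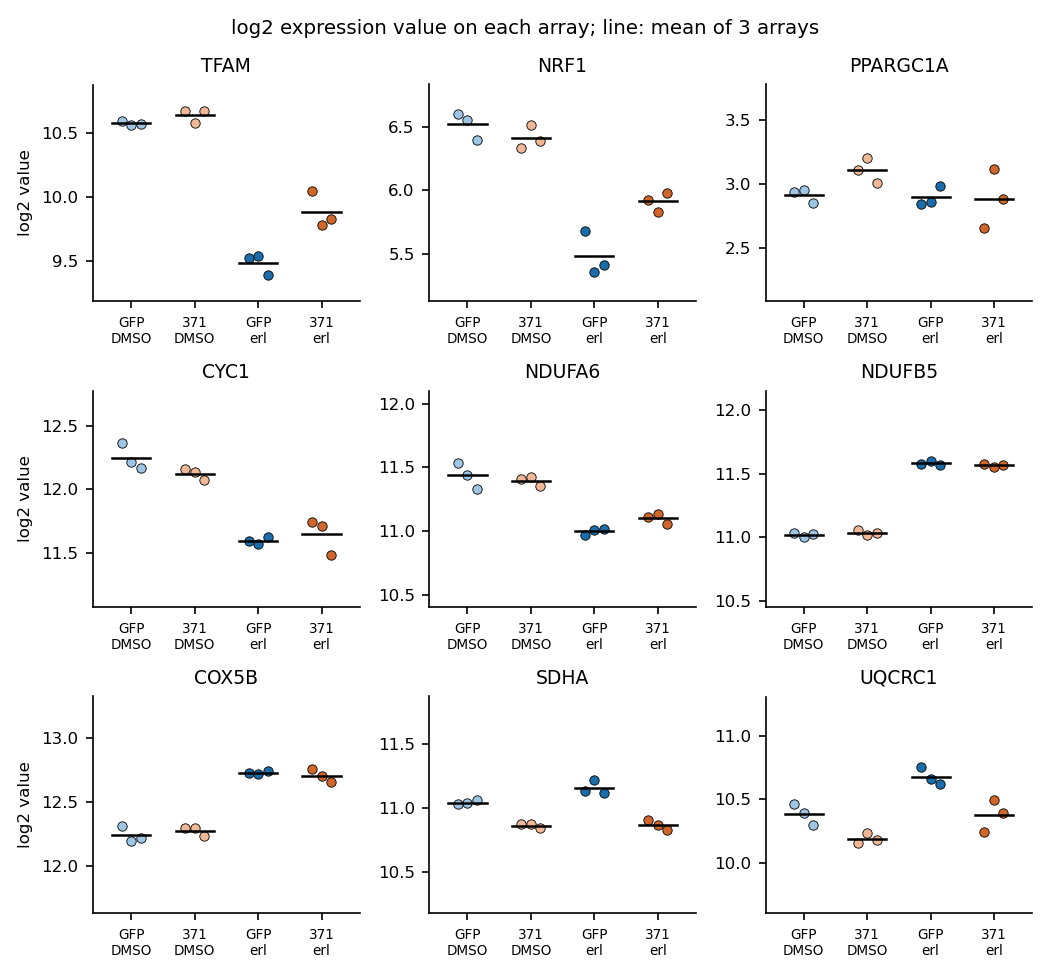
log2 expression value (vertical axis, each panel spanning the same number of log2 units) of 9 respiratory chain genes on each of 12 arrays, as points, for the GFP vector line (marked GFP) and the pre-miR-371 line (marked by the number of its miRNA) in DMSO and erlotinib (erl), with a line at the mean of 3 arrays. TFAM, NRF1, CYC1 and NDUFA6 sit lower and NDUFB5 and COX5B higher in erlotinib in both lines, with no overlap, and SDHA sits lower in the pre-miR-371 line.

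Over all 39 measured genes the answer to erlotinib was mixed and mostly small. In the GFP vector line 10 rose and 8 fell at an adjusted p under 0.05 (limma, adjusted over all genes), where 26.5% of all genes tested rose and 23.4% fell. Of the 39, 37 had a mean of 8 or more on the log2 scale, and among all 5610 genes with such a mean 36% rose and 44.7% fell. The share of the 39 that changed, 46.2%, was thus near that of all genes, 49.8%, and under that of the brightly detected genes, 80.7%. At a fold over 1.5 as well, 0 rose (14.1% of all genes) and 3 fell (11.7%), namely TFAM, NRF1 and CYC1. Without the fold limit 12 had a positive and 8 a negative difference at an unadjusted p under 0.05. At that limit 53.8% of all genes differed in either direction. The median log2 fold change of the 39 was 0.01, and that of all genes 0.0029. For the 36 subunits alone the median size of the change, whatever its sign, was 0.12, against 0.46 for the genes with a mean of at least 8.

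In the pre-miR-371 line 8 rose and 7 fell, where 24.8% of all genes rose and 22.2% fell, and 35.4% and 41.8% of the genes with a mean of at least 8. At a fold over 1.5, 0 rose (12.6% of all genes) and 1 fell, TFAM (9.33% of all genes). At an unadjusted p under 0.05 there were 12 positive and 7 negative differences, where 51.9% of all genes differed in either direction. The balance of the calls moved with the scaling of the arrays. With quantile normalization repeated, 16 rose and 7 fell in the GFP vector line and 16 and 6 with pre-miR-371. Of the 19775 genes, 5378 rose and 4676 fell, and 4961 and 4586, under that scaling. With arrays centred on their medians 8 rose and 10 fell, and 6 and 8. Of all genes 4512 rose and 5523 fell, and 4510 and 5119. No shift of the 39 as a whole can be read from these counts. The 95% intervals of 31 of the 36 subunits in the GFP vector line and of 33 with pre-miR-371 lay within a 1.5-fold change either way.

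**Figure D2:**
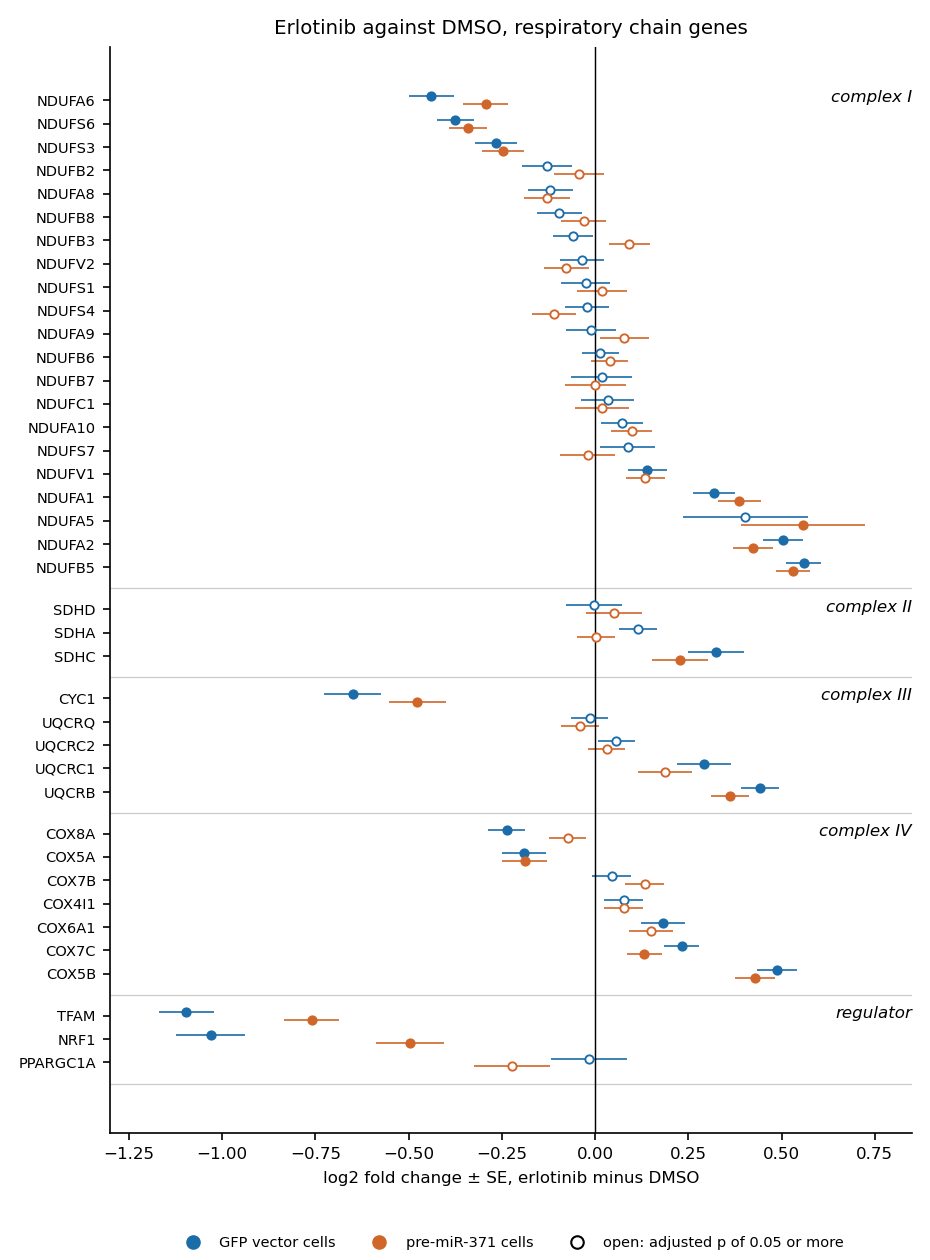
log2 fold change of erlotinib against DMSO (horizontal axis, ± SE from limma) for each of the 39 measured genes, grouped by complex, in the GFP vector line (blue) and the pre-miR-371 line (orange); filled points have an adjusted p under 0.05. The subunits lie between -0.65 and 0.56, on both sides of 0 in complexes I, III and IV, and the largest falls are those of TFAM and NRF1 in the GFP vector line.

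In complex I, 4 of 21 measured subunits rose and 3 fell in each line, and the median was -0.01 in the GFP vector line and 0.02 with pre-miR-371. NDUFB5, an accessory subunit of the membrane arm, read 11.03, 11.01 and 11.03 in the GFP vector line in DMSO and 11.58, 11.60 and 11.57 in erlotinib, and 11.06, 11.02 and 11.03 and 11.58, 11.55 and 11.57 in the pre-miR-371 line. The arrays of a group lay within a few hundredths of each other, and the rise was 0.56 ± 0.05 (adjusted p = 4.41e-07) and 0.53 ± 0.05 (adjusted p = 9.04e-07) in these lines. NDUFA2, an accessory subunit of the matrix arm, read 10.85, 10.83 and 10.73 and 11.36, 11.29 and 11.27 in the GFP vector line, and its rise was 0.50 ± 0.05 (adjusted p = 4.94e-06) there and 0.42 ± 0.05 (adjusted p = 2.74e-05) in the pre-miR-371 line. Its dimmer probe sets gave -0.20 and -0.11 in the GFP vector line, and with the mean of all its probe sets NDUFA2 was not called in either line. NDUFA1, another accessory subunit, rose by 0.32 ± 0.06 and 0.39 ± 0.06.

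NDUFA5 varied more between arrays than any other member of the module in 3 of the 4 groups. It read 9.39, 9.30 and 9.06 in the GFP vector line in DMSO and 9.86, 9.23 and 9.87 in erlotinib, where the second array sat among the DMSO values, and the difference of 0.40 ± 0.17 (adjusted p = 0.0643) did not pass the test. In the pre-miR-371 line it read 9.48, 9.40 and 9.67 and 9.91, 10.01 and 10.30, with no overlap, and the rise was 0.56 ± 0.17 (adjusted p = 0.0149). That call was lost without the second DMSO array of the pre-miR-371 line or the third erlotinib array, with adjusted p of up to 0.0684. NDUFV1, which carries the NADH binding site, had a difference of 0.14 ± 0.05 (adjusted p = 0.0447) in the GFP vector line and 0.14 ± 0.05 (adjusted p = 0.0555) with pre-miR-371, and the first of these passed in 3 of 12 fits that each left out 1 array.

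The 3 complex I subunits that fell were NDUFA6, NDUFS6 and NDUFS3, and they fell in both lines. NDUFA6, an accessory subunit, read 11.54, 11.44 and 11.33 in the GFP vector line in DMSO and 10.97, 11.01 and 11.02 in erlotinib, and 11.41, 11.42 and 11.35 and 11.11, 11.13 and 11.06 in the pre-miR-371 line. NDUFS6, an accessory subunit of the matrix arm, read 12.37, 12.41 and 12.44 and 12.05, 12.03 and 12.02 in the GFP vector line. Every erlotinib array was below every DMSO array of its line for both genes. The log2 fold changes were -0.44 ± 0.06 (adjusted p = 4.53e-05) and -0.29 ± 0.06 (adjusted p = 0.00133) for NDUFA6 and -0.37 ± 0.05 (adjusted p = 3.98e-05) and -0.34 ± 0.05 (adjusted p = 0.000102) for NDUFS6. The other NDUFA6 probe set, with a mean of 8.71, gave -0.07 and -0.03, neither past the test with every probe set tested. The fall of NDUFA6 thus rests on the probe set that stood for it. NDUFS3, a core subunit conserved from bacteria, changed by -0.26 ± 0.06 (adjusted p = 0.00155) and -0.25 ± 0.06 (adjusted p = 0.00272). Besides NDUFS3 and NDUFV1, the measured core subunits NDUFS1, NDUFS7 and NDUFV2 had differences of -0.03, 0.09 and -0.04 in the GFP vector line and 0.02, -0.02 and -0.08 in the pre-miR-371 line, none past the test.

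In complex II, SDHC, a membrane anchor, read 10.38, 10.58 and 10.44 in the GFP vector line in DMSO and 10.82, 10.74 and 10.81 in erlotinib, and 10.53, 10.26 and 10.41 and 10.60, 10.68 and 10.60 in the pre-miR-371 line. The rise was 0.32 ± 0.08 (adjusted p = 0.00286) and 0.23 ± 0.08 (adjusted p = 0.0247), and the second call was lost without the second or the third DMSO array or the second erlotinib array of that line (adjusted p of up to 0.117). SDHA, the flavoprotein that oxidises succinate, had differences of 0.12 ± 0.05 (adjusted p = 0.0829) and 0.00 ± 0.05 (adjusted p = 0.977). SDHD, the other anchor, read 10.75, 10.72 and 10.70 and 10.77, 10.56 and 10.83 in the GFP vector line and 10.83, 10.90 and 10.84 and 10.81, 10.92 and 11.00 in the pre-miR-371 line, and its arrays overlapped between DMSO and erlotinib in both lines. The probe sets that stood for SDHA and SDHC, like those of COX4I1 and COX7C, carry a name suffix for probes that can also bind other transcripts.

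Among the subunits of the module, each read by the probe set that stood for it, the largest fall in each line was in complex III. CYC1, the cytochrome c1 that hands electrons to cytochrome c, read 12.36, 12.21 and 12.16 in the GFP vector line in DMSO and 11.60, 11.57 and 11.62 in erlotinib, and 12.16, 12.14 and 12.07 and 11.74, 11.71 and 11.49 in the pre-miR-371 line. Erlotinib and DMSO arrays were well apart, and CYC1 fell by 0.65 ± 0.08 (1.57-fold, adjusted p = 1.09e-05) and by 0.48 ± 0.08 (1.39-fold, adjusted p = 0.000186). In the same complex UQCRB, a small subunit near the ubiquinone site, read 11.88, 11.97 and 11.88 and 12.37, 12.34 and 12.35 in the GFP vector line and 11.90, 11.92 and 11.94 and 12.25, 12.27 and 12.33 in the pre-miR-371 line, a rise of 0.44 ± 0.05 (adjusted p = 1.02e-05) and 0.36 ± 0.05 (adjusted p = 6.77e-05). The core protein UQCRC1 rose by 0.29 ± 0.07 (adjusted p = 0.00466) in the GFP vector line and had a difference of 0.19 ± 0.07 (adjusted p = 0.0538) with pre-miR-371, and UQCRC2 and UQCRQ did not pass in either line.

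In complex IV, COX5B, a matrix-side subunit, read 12.31, 12.20 and 12.22 in the GFP vector line in DMSO and 12.73, 12.72 and 12.74 in erlotinib, and 12.29, 12.29 and 12.24 and 12.76, 12.70 and 12.65 in the pre-miR-371 line. It rose in both lines, by 0.49 ± 0.05 (adjusted p = 6.43e-06) and 0.43 ± 0.05 (adjusted p = 2.31e-05). COX5A, also on the matrix side, fell instead, by log2 fold changes of -0.19 ± 0.06 (adjusted p = 0.0182) and -0.19 ± 0.06 (adjusted p = 0.0205), though each of these calls was lost without 1 of 2 arrays (the second DMSO or the third erlotinib array of the GFP vector line, and the second DMSO or the first erlotinib array of the pre-miR-371 line). A dimmer COX5A probe set, with a mean of 6.59, gave larger falls, -0.90 and -0.91 (limma adjusted p = 8.19e-06 and 9.439e-06 with every probe set tested). The size of the COX5A fall thus depends on the probe set. COX8A, a small membrane subunit, read 12.19, 12.11 and 12.10 and 11.88, 11.88 and 11.93 in the GFP vector line, a fall of 0.24 ± 0.05 (adjusted p = 0.00145), and had a difference of -0.07 ± 0.05 (adjusted p = 0.269) in the pre-miR-371 line. COX7C rose by 0.23 ± 0.05 (adjusted p = 0.0011) and 0.13 ± 0.05 (adjusted p = 0.0373), the second in 5 of 12 fits that each left out 1 array. COX6A1 rose by 0.18 ± 0.06 (adjusted p = 0.0217) in the GFP vector line, a call lost without the third DMSO array or the first or the third erlotinib array of this line. COX4I1 and COX7B did not pass in either line.

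Gene by gene, the calls in the lines overlapped. Of the 19 genes called in either line, 14 were called in both, 7 higher and 7 lower, and 0 in opposite directions; these 14 were 77.8% of the 18 called in the GFP vector line and 93.3% of the 15 called with pre-miR-371. Higher in both were NDUFA1, NDUFA2, NDUFB5, SDHC, UQCRB, COX5B and COX7C, and lower in both were NDUFA6, NDUFS3, NDUFS6, CYC1, COX5A, TFAM and NRF1. Across the 39 genes the log2 fold changes of the lines correlated with Pearson's r of 0.945 and Spearman's rho of 0.919, and with r of 0.953 across the 36 subunits. Over all genes tested the genes called in both lines in the same direction were 83.5% and 88.6% of these lists, with r of 0.961 and rho of 0.866, and over genes with a mean of at least 8 they were 90.4% and 94.4%, with r of 0.981 and rho of 0.978, so the overlap is not particular to the module. The fold changes of the lines share no array, but the calls come from the same fit, with a spread per gene estimated from all 12 arrays. The calls in the lines are thus not independent, and the genes are not independent replicates. Of the called genes, 7 in each line had another probe set whose mean was 6 or more on the log2 scale, and it was called in the same direction for 6 in the GFP vector line and 5 with pre-miR-371 and in the opposite direction for none. The exceptions were NDUFA6 in both lines and COX7C with pre-miR-371.

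Because the transcript of NRF1 fell, the promoters of the 39 genes were searched for letters that its protein and related factors are known to bind. RefSeq windows (GRCh38.p14) from 250 bases before to 50 bases after a gene's start were at hand for 34 of the 39. The core of the NRF1 motif, GCATGCGC on either strand, lay in the windows of 8 of 34 (23.5%), against 3.68% of 27305 genes with a window. The ETS motif CCGGAAG lay in 10 (29.4%, all genes 12.2%), the YY1 motif AAGATGGCG in 6 (17.6%, all genes 2.14%) and the ERRα motif TCAAGGTCA in 1 (2.94%, all genes 0.432%). No match to 1 motif overlapped a match to another. A match is a description of the letters and not a site that was measured.

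Genes with the NRF1 core did not go one way. The 8 were NDUFA5, NDUFA6, NDUFA8, NDUFS6, NDUFS7, SDHD, COX5B and COX6A1. In the GFP vector line 2 of them rose (COX5B and COX6A1), 2 fell (NDUFA6 and NDUFS6) and 4 were not called, against 5, 4 and 17 of the other 26. In the pre-miR-371 line 2 rose (COX5B and NDUFA5), 2 fell (NDUFA6 and NDUFS6) and 4 were not called, against 3, 3 and 20. The 200 bases before the start of the 3 genes called in both lines are printed 5′ to 3′ on the gene's strand, with the NRF1 core, read on either strand, and the ETS motif in capitals. NDUFA6 lies on chr22:42090773-42090972 (minus strand), NDUFS6 on chr5:1801207-1801406 (plus strand) and COX5B on chr2:97645862-97646061 (plus strand). The core starts 166 bases before the start of NDUFA6, 46 before that of NDUFS6 and 136 before that of COX5B, which also has an ETS motif 37 bases before its start and another that begins 5 bases before it, runs past the end of the printed bases and is left in lower case.
NDUFA6: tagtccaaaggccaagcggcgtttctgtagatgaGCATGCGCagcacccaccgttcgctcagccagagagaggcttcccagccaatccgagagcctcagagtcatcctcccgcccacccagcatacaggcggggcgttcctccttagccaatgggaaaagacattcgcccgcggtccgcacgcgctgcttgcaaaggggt
NDUFS6: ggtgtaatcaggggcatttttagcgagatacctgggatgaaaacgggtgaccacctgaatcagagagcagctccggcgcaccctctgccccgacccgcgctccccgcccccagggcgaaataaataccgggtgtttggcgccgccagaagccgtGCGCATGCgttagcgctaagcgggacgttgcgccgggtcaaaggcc
COX5B: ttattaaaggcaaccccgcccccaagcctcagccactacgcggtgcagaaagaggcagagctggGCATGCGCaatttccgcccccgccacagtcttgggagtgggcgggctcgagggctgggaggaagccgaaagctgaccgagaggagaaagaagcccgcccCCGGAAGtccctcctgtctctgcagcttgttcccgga

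Between the lines in DMSO the module differed little. None of the 39 was called higher and none lower by limma, where 1.62% and 3.64% of all genes were. At an unadjusted p under 0.05 there were 0 higher and 7 lower, where 1783 and 2726 of the 19775 genes were. Among the 5610 genes with a mean of at least 8, 402 were higher and 1229 lower at that limit. The methods' t-test with Benjamini-Hochberg adjustment also called 0 of the 39. Of the 39 differences 26 were negative and 13 positive, with a median of -0.04 against -0.0013 over all genes, but genes with a mean of at least 8 leaned the same way, 3668 of 5610 negative with a median of -0.05, so the lean is not particular to the module. SDHA read 11.03, 11.04 and 11.06 in the GFP vector line and 10.87, 10.87 and 10.84 in the pre-miR-371 line, which do not overlap, a difference of -0.18 ± 0.05 (adjusted p = 0.0646). NDUFA9 and NDUFB7, accessory subunits of complex I, had -0.22 ± 0.07 (adjusted p = 0.0785) and -0.23 ± 0.08 (adjusted p = 0.131). With a variance trend and robust moderation in limma 7 were called lower (NDUFA9, NDUFA10, NDUFB7, NDUFV1, SDHA, UQCRC1 and COX8A), so the count of 0 depends on how the spread is moderated. The share of all genes called under that model was not counted, so the 7 cannot be read as particular to the module. The 95% intervals of 35 of the 36 subunits lay within a 1.5-fold difference either way, the exception being NDUFA5 (-0.10 to 0.63).

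In erlotinib the pre-miR-371 line had 2 genes higher and 2 lower, where 6.5% of all genes were higher and 9.46% lower. The higher ones were the regulators. TFAM, read on each array above, was higher by 0.40 ± 0.07 (adjusted p = 0.0045), and NRF1 by 0.43 ± 0.09 (adjusted p = 0.00982), and in neither did the lines overlap in erlotinib. The probe sets of TFAM gave 0.40, 0.52, 0.26 and 0.07 in this comparison, all but the last at an adjusted p under 0.05 with every probe set tested, and the second NRF1 probe set gave -0.07, so the higher value of NRF1 was called on 1 probe set and not on the other. With the mean of all its probe sets NRF1 was not called.

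The lower ones were a complex II and a complex III subunit. SDHA read 11.13, 11.22 and 11.12 in the GFP vector line in erlotinib and 10.90, 10.86 and 10.82 in the pre-miR-371 line, a difference of -0.29 ± 0.05 (adjusted p = 0.00326). UQCRC1 read 10.76, 10.66 and 10.62 and 10.25, 10.50 and 10.39, a difference of -0.30 ± 0.07 (adjusted p = 0.0174). The lines did not overlap for either gene, but the call of UQCRC1 was lost without the first erlotinib array of the GFP vector line or of the pre-miR-371 line (adjusted p of up to 0.0668). The 35 other genes did not pass, among them NDUFA5 at 0.42 ± 0.17 (adjusted p = 0.11), SDHC at -0.16 ± 0.08 (adjusted p = 0.167) and SDHD at 0.19 ± 0.07 (adjusted p = 0.114). No difference between the lines in erlotinib that was called reached a fold of 1.5. The ACTB 3′ minus 5′ difference, given above, was also higher in the pre-miR-371 line in both treatments, and that of GAPDH in erlotinib. Their part in these differences was not tested.

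**Figure D3:**
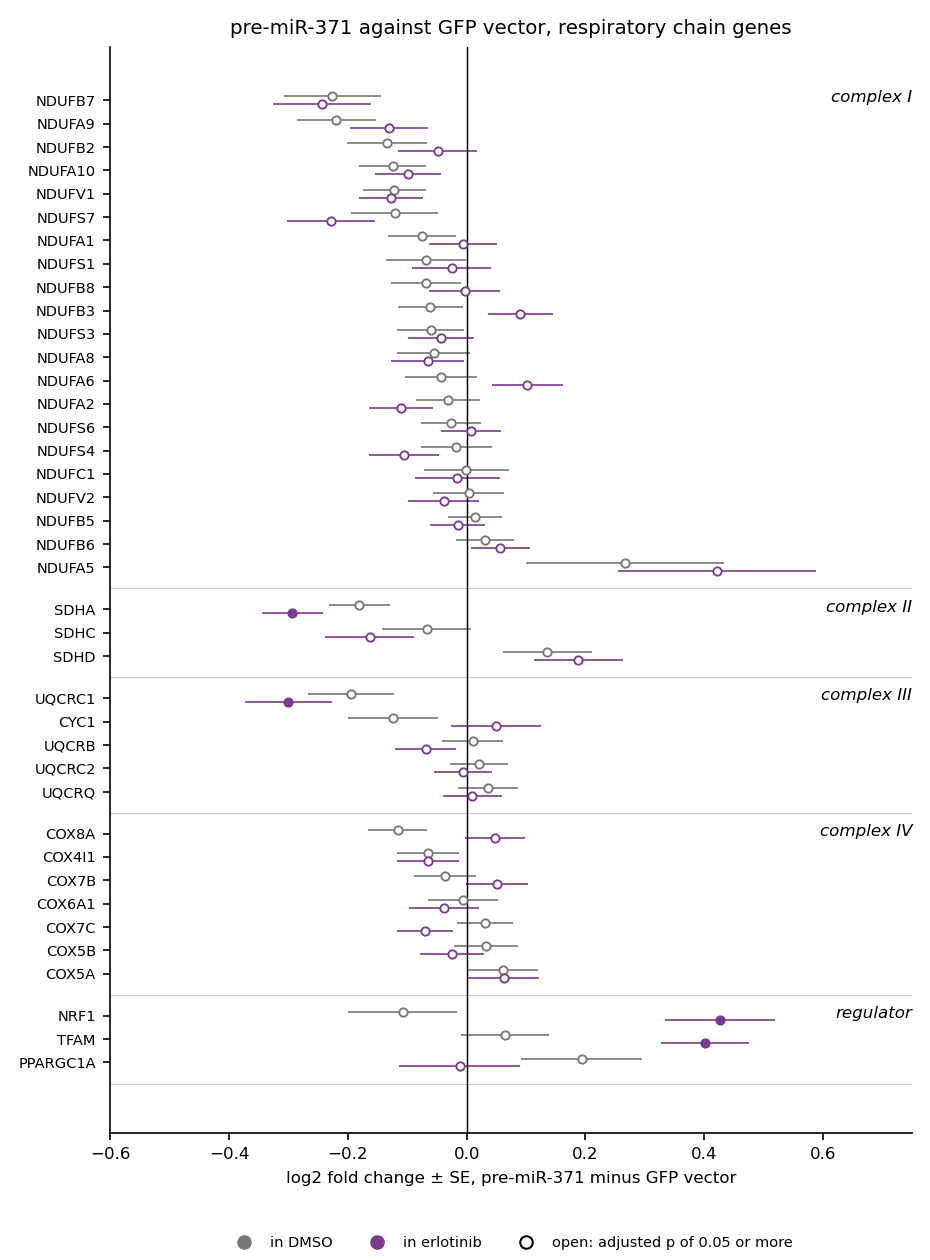
log2 fold change of pre-miR-371 against the GFP vector line (horizontal axis, ± SE from limma) for each of the 39 measured genes, grouped by complex, in DMSO (grey) and in erlotinib (purple); filled points have an adjusted p under 0.05. No gene is filled in DMSO, and in erlotinib SDHA and UQCRC1 are lower and TFAM and NRF1 higher in the pre-miR-371 line.

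Whether erlotinib acted differently in the lines was tested as the difference of the responses, pre-miR-371 minus GFP vector. None of the 39 was called by limma in either direction (1.44% of all genes were higher and 0.561% lower). At an unadjusted p under 0.05, where 1533 of the 19775 genes were higher and 1441 lower, 3 of the 39 were higher and 0 lower. These were NRF1 (0.53 ± 0.13, adjusted p = 0.0633), TFAM (0.34 ± 0.10, adjusted p = 0.144) and COX8A (0.16 ± 0.07, adjusted p = 0.298), in each of which the log2 fold change was less negative in the pre-miR-371 line. Next by p were NDUFB3 (0.15 ± 0.08, adjusted p = 0.391), NDUFA6 (0.15 ± 0.09, adjusted p = 0.47) and CYC1 (0.17 ± 0.11, adjusted p = 0.499). Alternatives that tested fewer genes or moderated the spread differently called some of these: NRF1 and TFAM when the test was kept to genes with a mean of at least 6, and NRF1, TFAM and COX8A with a variance trend and robust moderation. The call of both regulators thus depends on the setting, and the second NRF1 probe set gave 0.03. For 35 of the 36 subunits the 95% interval of the difference of responses lay within 1.5-fold either way.

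Other genes of the pathway were counted in the same fit. Of all genes tested 49.8% were called for erlotinib in the GFP vector line and 47% with pre-miR-371. Among genes with a mean of at least 8 these shares were 80.7% and 77.2%. Of 18 measured subunits that were not in the module, 10 rose and 5 fell in the GFP vector line and 9 rose and 5 fell with pre-miR-371, with medians of 0.17 and 0.14. Called were 44.4% and 36.1% of the module's 36 subunits, and 83.3% and 77.8% of these 18. The median size of the change was 0.12 and 0.12 for the module's subunits, and 0.33 and 0.23 for these 18. The small size of the changes is thus that of the listed subunits and not of all measured ones. The largest falls were those of NDUFV3, an accessory subunit of complex I (-0.96 in the GFP vector line), and CYCS, cytochrome c (-0.86 and -0.73), while NDUFA3 and NDUFB1 rose by 0.54 and 0.54 in the GFP vector line. CYCS is the partner of CYC1, and both fell. Of 7 measured subunits encoded by mitochondrial DNA, 1 rose in each line, MT-CO1 (0.20 and 0.25), and none fell, with medians of 0.06 and 0.09; these probe sets had a median log2 value of 13.6, near the top of the scale.

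Of 18 genes of ATP synthase, the enzyme that uses the proton gradient, 1 rose and 10 fell in the GFP vector line and 2 rose and 8 fell with pre-miR-371. ATP5MC1 and ATP5MC2 encode the same mature ring subunit, and ATP5MC1 had log2 fold changes of -0.63 and -0.54 while ATP5MC2 had 1.03 and 0.73. Of 43 assembly factors, which build the complexes, 11 rose and 23 fell in the GFP vector line and 9 rose and 26 fell with pre-miR-371, with medians of -0.36 and -0.32. COA7 (-1.75), a complex IV factor, and NDUFAF2 (-1.59) and NDUFAF4 (-1.51), complex I factors, were among the falls in the GFP vector line, and COA5 (1.04) among the rises. Of 11 citric acid cycle genes 2 rose and 6 fell in the GFP vector line and 2 rose and 5 fell with pre-miR-371, with IDH3A at -0.95, citrate synthase CS at -0.74 and DLST at -0.72 in the GFP vector line, and SUCLG2 at 0.65. The shares called were 61.1% and 55.6% for ATP synthase, 79.1% and 81.4% for assembly factors and 72.7% and 63.6% for the citric acid cycle. Those of ATP synthase and the citric acid cycle were under the shares of genes with a mean of at least 8, given above. That of the assembly factors was near it in the GFP vector line and above it with pre-miR-371.

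Of 15 other regulators of mitochondrial genes, 0 rose and 12 fell in the GFP vector line and 1 rose and 12 fell with pre-miR-371, with medians of -0.65 and -0.67 where those of all genes were 0.0029 and -0.03. PPRC1 and PPARGC1B, coactivators related to PPARGC1A, changed by -1.78 ± 0.09 (adjusted p = 7.95e-09) and -1.34 ± 0.08 (adjusted p = 2.5e-08) in the GFP vector line and by -1.59 and -1.46 with pre-miR-371. TWNK, the helicase that unwinds mitochondrial DNA for its replication, changed by -1.15 and -1.15, and TFB2M and MTERF3, which act on mitochondrial transcription, by -0.67 and -0.65 in the GFP vector line. TFAM and NRF1 thus fell beside most of the other measured regulators, while the 36 subunits both rose and fell, with medians of 0.03 and 0.04. Of the 15 other regulators 80% and 86.7% were called, against 80.7% and 77.2% of genes with a mean of at least 8. All counts of these lists are from the same fit, with the same background shares as above.

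**Figure D4:**
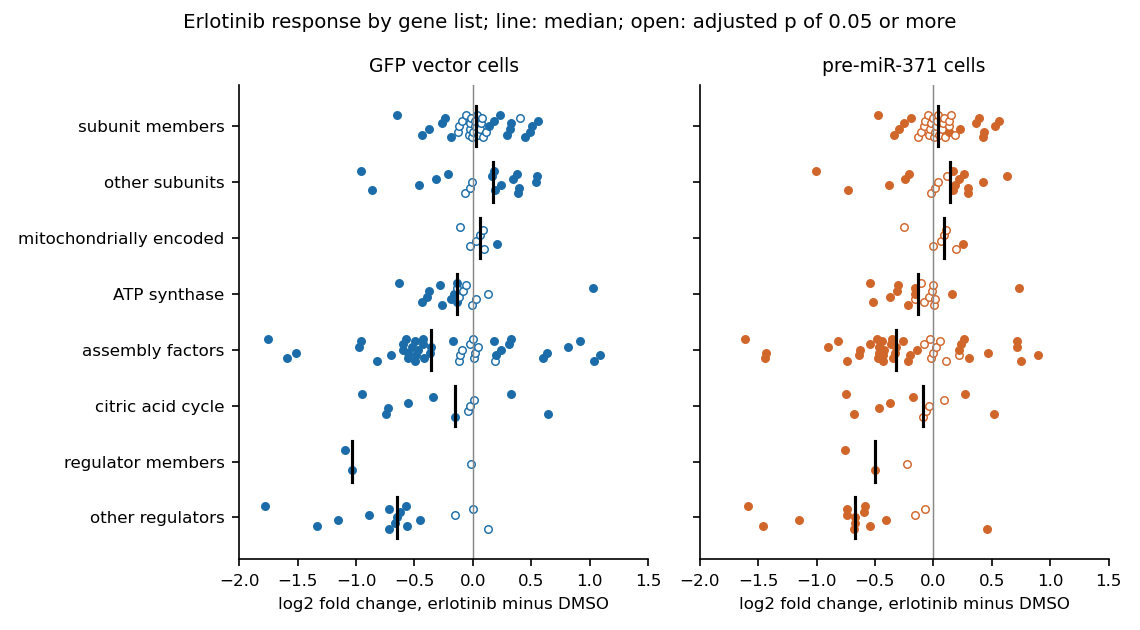
log2 fold change of erlotinib against DMSO (horizontal axis) for each measured gene, as points, of 8 gene lists in the GFP vector line (left) and the pre-miR-371 line (right), with a line at each list's median; filled points have an adjusted p under 0.05. The subunits of the module have medians of 0.03 and 0.04, and the assembly factors, the regulators of the module and the other regulators have medians below 0 in both lines.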

How the data were processed

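RNA of 12 cell samples was hybridised to Affymetrix Hgu133plus2 arrays. The values the authors deposited are on the log2 scale, with 1 for each probe set on each array, made with RMA and affy as the submitters' processing notes name them (versions not given in the sources used here), so background correction, normalization between arrays and probe summary were already in the values. Samples were grouped by their labels. Gene names came from the platform annotation, and old symbols were replaced by way of gene identifiers in a RefSeq table. Of 54675 probe sets, 41097 had 1 symbol, 1801 several and 11777 none listed; 62 control probe sets among these were left out. Each comparison was fitted in limma 3.58.1 under R 4.3.3 (1 mean per group, all 12 arrays, eBayes), adjusted by Benjamini-Hochberg over 19775 genes, with a threshold of 0.05. The arrays' number limits precision: the 95% interval of a member's fold change reached 0.10 to 0.36 either way (median 0.13). No arrays held identical values.

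The members and lists were chosen with earlier results of these data known. Named in full were the regulators, complex II subunits, the called members that rose or fell most in each comparison (up to 8 each way), the 6 members with the smallest p for the difference of responses and up to 4 genes of each other list with the smallest p; other members named were chosen after their values were seen. Alternatives were other probe set rules, filters, scalings, variance models, the replicate block, each array left out and the methods' t-test. The model was tested on simulated data. The plots were made in Python 3.11.15 with matplotlib 3.10.9.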

Additional observations from a re-analysis of the deposited data

How the results depend on the processing

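No fold change of a called member reversed, but many of the alternatives could not reverse one. Filters, variance moderation, the replicate block and the t-test leave the fold change as it is. So do testing every probe set and fitting only the groups compared. A fold change could move only under the mean of all probe sets, the scalings, the array weights and the arrays left out. In a tally of the values of 37 calls under all these alternatives, 445 stayed past the threshold and 33 did not. The tally leaves out the fold limit and the unadjusted p. Of the fits without 1 array it holds only those with the lowest and the highest fold change of each call. Within it the most were lost under the mean of all probe sets (7 of 37 calls, NDUFA2 in both lines among them). Over all 12 fits that each left out 1 array, the NDUFV1 call in the GFP vector line was lost in 9 and the COX7C call with pre-miR-371 in 7. For erlotinib in the GFP vector line (10 higher, 8 lower, median 0.0141), quantile normalization repeated gave 16 higher and a median of 0.1090, arrays centred on their medians a median of -0.0562, and a fold over 1.5 gave 0 higher and 3 lower; leaving out 1 array gave 8 to 10 higher, 7 to 8 lower and medians of -0.0159 to 0.0550, the last without the first GFP vector DMSO array. In the pre-miR-371 line (8 higher, 7 lower, median 0.0188), quantile normalization gave 16 higher and a median of 0.0791, centring a median of -0.0245, trend and robust moderation 13 higher, and a fold over 1.5 0 higher and 1 lower; leaving out 1 array gave 5 (without the second pre-miR-371 DMSO array) to 10 higher and 6 to 8 lower. The medians' sign thus depends on the scaling. Centring, which shifts all genes of an array alike, moved the median of all genes by -0.0703 in the GFP vector line and -0.0433 with pre-miR-371. Quantile normalization repeated moved it by -0.0108 and -0.0004. The counts of all genes under these scalings are given above. Between the lines in DMSO (0 and 0), 3 were lower among genes with a mean of at least 6, 6 at 8, 7 with trend and robust moderation, 3 with array weights and 7 at the unadjusted p. In erlotinib (2 higher, 2 lower), higher counts were 1 with the mean of all probe sets, 4 at a mean of 6, 0 by the methods' t-test, 0 at a fold over 1.5 and 4 unadjusted, and lower counts 5 at a mean of 6, 7 at 8, 1 with only the groups compared, 6 with trend and robust moderation, 4 with array weights, 1 by the t-test, 0 at a fold over 1.5 and 5 unadjusted; leaving out 1 array gave 1 (without the first GFP vector erlotinib array) to 4 lower (without the first GFP vector DMSO array). For the difference of responses (0 and 0), higher counts were 2 at a mean of 6, 1 at 8, 3 with trend and robust moderation, 1 with array weights and 3 unadjusted, and 0 to 1 with 1 array left out (1 without the third GFP vector DMSO or the first GFP vector erlotinib array). NRF1 has no value under the filter at 8. At an unadjusted p under 0.05, 22.8% of all genes differed between the lines in DMSO and 30.5% in erlotinib. For the difference of responses 15% did. Apart from the scalings, the fold limit and the unadjusted p, the shares of all genes called under the alternatives were not counted. The filters change how many genes are adjusted over; the cause of the other moves was not tested.

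With the replicate block, 10 were higher and 8 lower for erlotinib in the GFP vector line, with pre-miR-371 9 and 7, 0 and 0 between the lines in DMSO, 2 and 3 in erlotinib and 0 and 0 for the difference of responses, and it lost none of the 37 calls. The replicate numbers were not taken to pair the samples: correlations of same-numbered arrays' deviations ran from -0.06 to 0.20, although 10 of 12 arrays correlated best with their own number.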

Other observations

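Of 7 measured tissue isoforms and relatives of complex IV subunits, 1 was higher in erlotinib in the GFP vector line (COX7A2L, 0.24 ± 0.06, adjusted p = 0.00474 by limma) and 1 lower with pre-miR-371 (COX6B2, -0.31 ± 0.09, adjusted p = 0.014), and their median log2 value was 4.22. Of all genes 49.8% and 47% were called in these comparisons. Between the lines in erlotinib, 2 of 15 other regulators of mitochondrial genes were higher in the pre-miR-371 line, GABPA (0.59 ± 0.14, adjusted p = 0.015 by limma) and YY1 (0.28 ± 0.07, adjusted p = 0.0179), and 1 was lower, POLRMT, the mitochondrial RNA polymerase (-0.28 ± 0.07, adjusted p = 0.016). Of 43 assembly factors 2 were higher and 7 lower in that comparison, with UQCC1, a complex III factor, at -0.42 ± 0.06 (adjusted p = 0.00159) in erlotinib and -0.35 ± 0.06 (adjusted p = 0.0132) in DMSO. Of 11 citric acid cycle genes 2 were higher (SUCLA2 and IDH3A) and 2 lower (IDH3B and IDH3G) with pre-miR-371 in erlotinib. Of 18 ATP synthase genes 1 was higher (ATP5MC3) and 1 lower (ATP5MC2). Between the lines in erlotinib 6.5% of all genes were higher and 9.46% lower, and 663 and 852 of the 5610 genes with a mean of at least 8. None of the genes of these lists was called for the difference of responses, where 2% of all genes were.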
